A study of Rattus norvegicus with 8 samples.

Results

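Leukocytes of the heart wall were followed through 47 marker genes, chosen by name: genes that most leukocytes share and genes of macrophages and other myeloid cells, T cells, B cells, mast cells, neutrophils and cytotoxic cells. All probe sets annotated to these genes were taken, and for each gene the probe set with the highest mean of the 8 arrays stood for it. Of the 47 genes, 45 were measured, by 56 probe sets, among 14217 genes measured in all. For Spi1, the transcription factor PU.1, and Cd79a, a chain of the B cell receptor complex, no probe set was named. RNA came from 4 pools of left atrial appendage and 4 pools of left ventricular free wall of 13 normal male Sprague Dawley rats of 225-275 g, untreated, with 1 array per pool. The age of the rats and the animals in each pool were not given, and that the tissue was from the left side rests on the study's methods. Values are log2 signal intensities, and a difference is the mean of the atrial pools minus the mean of the ventricular pools.

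The heart wall holds immune cells among its muscle cells, vessels and connective tissue. Macrophages are the most common of them and take up dead cells and debris, while mast cells store proteases and histamine in granules. Lymphocytes are sparse in the normal heart, and blood left in the vessels of the tissue brings leukocytes of its own. In RNA of whole tissue, fewer cells of a type and less RNA per cell cannot be told apart.

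Most of the leukocyte markers were less abundant in atrial than in ventricular tissue. Of the 45 measured, 24 (53.3%) were lower and 4 (8.89%) higher in the atria (limma, adjusted p under 0.05), while of all genes 22.5% were lower and 22.5% were higher. Of the 56 probe sets 29 were lower and 4 higher, against 20.1% and 18.6% of all probe sets. The 4 higher genes were Cd14, Cd163, Mrc1 and Cpa3, which belong to macrophages and mast cells. Among all members 37 differences were negative and 8 positive, with a median of -0.27 on the log2 scale, against -0.04 over all genes. Of the 14217 genes 7940 differences were negative and 6277 positive. In 21 members every atrial pool was below every ventricular pool, which held for 21.9% of all genes. In Cd14 and Cd163 every atrial pool was above every ventricular pool, an order found in 22.2% of all genes. The stricter thresholds of the study were set here on limma and not on the study's own test, as an adjusted p under 0.0001 and a fold of at least 1.8. They left Fcer2, Ncf1 and Itgal, all lower in the atria, where 2.53% of all genes were lower and 3.37% higher. Nkg7, at 1.8 fold, missed them by its limma adjusted p (0.00013) alone.

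**Figure D1:**
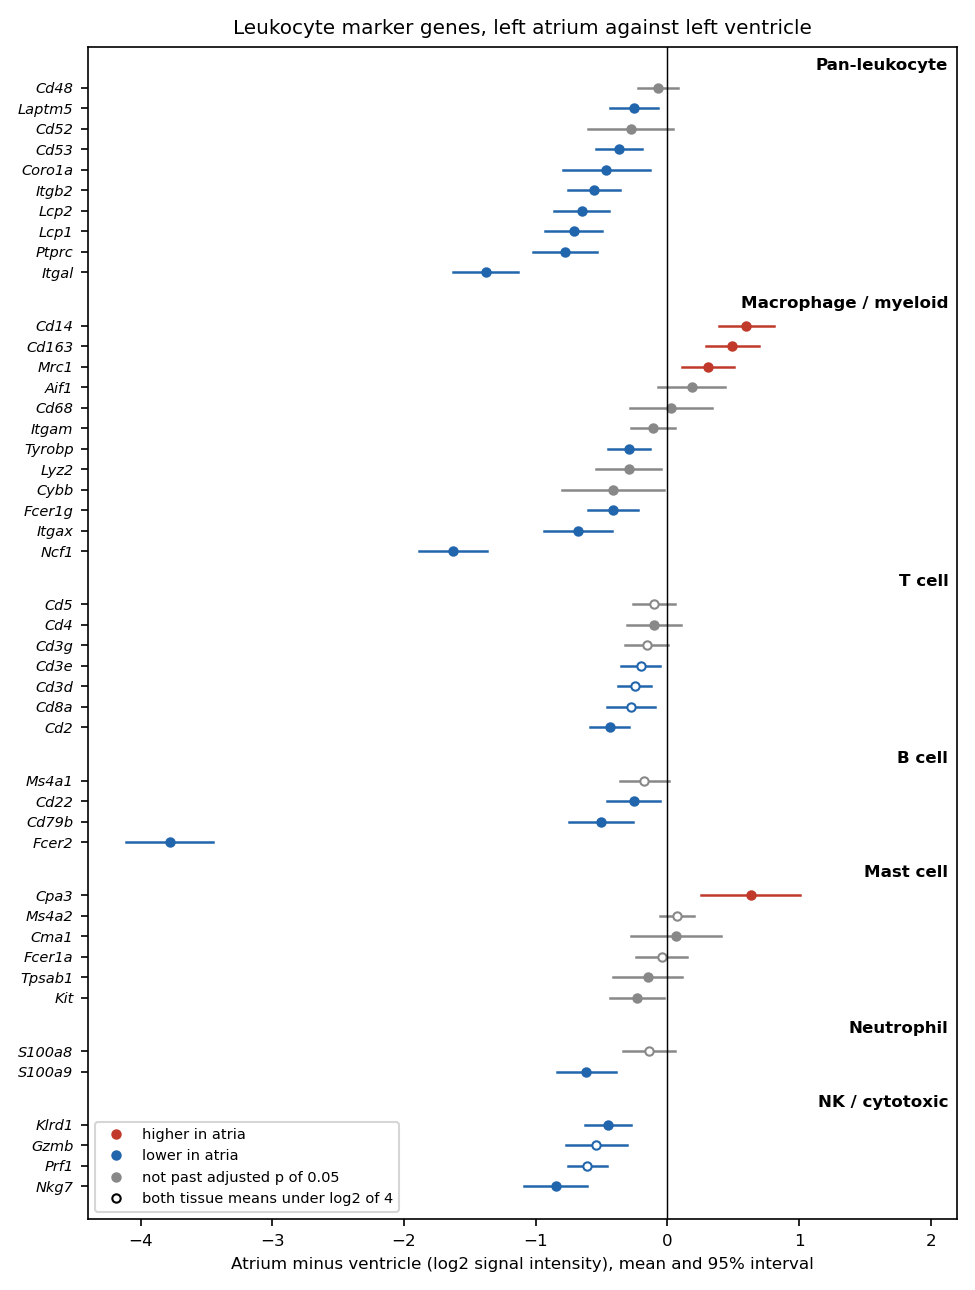
Difference between atrium and ventricle (log2 signal intensity, x axis) of each of the 45 measured members, grouped by cell class, with 95% intervals from limma. Points left of 0 are lower in the atria. Fcer2 at -3.78, Ncf1 at -1.63 and Itgal at -1.38 lie farthest to the left, and Cpa3 at 0.63 and Cd14 at 0.60 farthest to the right.

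Many of these transcripts gave dim signals, and a level under 4 on the log2 scale is called near the low end here. The lower quartile lay between 3.29 and 3.39 in the atrial arrays and between 3.38 and 3.42 in the ventricular arrays. Both tissue means were near the low end in 11 members, among them 5 of the lower calls, so the size of their differences is not set. Among all genes 3336 were as dim, and 458 of them were lower. Of the 34 brighter members 19 were lower and 4 higher, while of all 10881 brighter genes 2740 were lower and 3070 higher. Read against genes of like level, 14 of the 24 members with a mean from 4 to 6 were lower, where 24.6% of the 3598 genes in that range were, and 1 was higher, where 22.1% were. Of the 6 members between 6 and 8, 4 were lower and 2 higher, against 24.2% and 30.4% of genes. Under 4, 6 of 13 members were lower and 1 higher, against 15.3% and 5% of genes. The median difference in that range was -0.18 for the members and -0.09 for all genes. At 8 and over stood Cd48 and Lyz2, which did not pass the test, where 26.5% of genes were lower and 33.3% higher.

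The pools of one tissue were not alike. Atrial pools 1 and 4 held much more of the ventricular myosin light chain Myl2, at 10.48 and 11.30 on the log2 scale, than atrial pools 2 and 3, at 4.32 and 6.82, while the ventricular pools lay between 13.23 and 13.30. Of the other ventricular muscle genes, Myl3, Rpl3l and Fhl2 were also highest in atrial pools 1 and 4. Myh7 (6.29, 6.32, 6.27 and 6.68), Irx3 and Irx4 did not set atrial pool 1 apart. For the adipocyte gene Plin1, atrial pools 1 and 4 were opposite extremes, at 4.37 and 9.03. Atrial pools 1 and 4 were each the highest atrial pool in 18 of the 45 members, and atrial pool 2 was the lowest in 27. A link of these ranks to other cells in the pools was not tested. Without atrial pools 1 and 4, 27 members were lower in the atria and 2 were higher, in place of 24 and 4, and the median difference was -0.35.

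**Figure D2:**
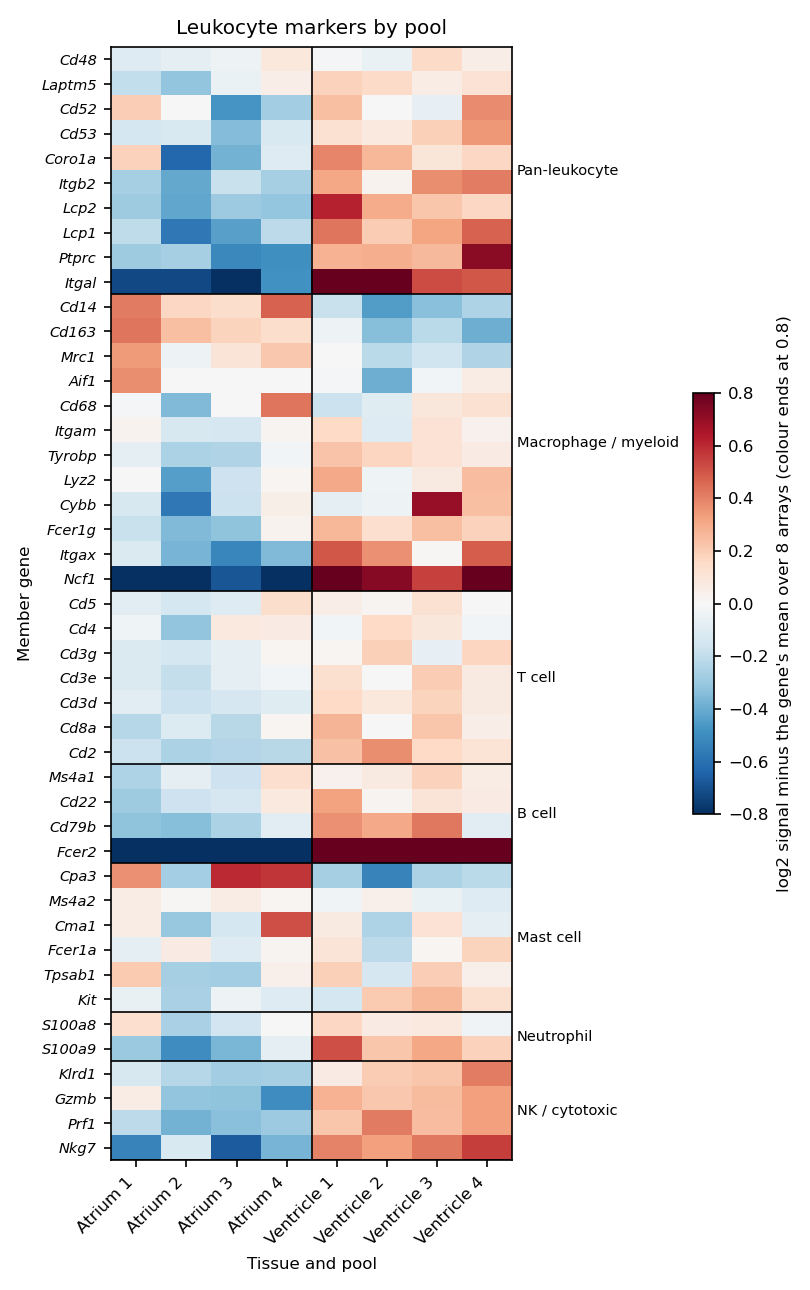
Log2 signal of each member minus its own mean over the 8 arrays (colour, ending at 0.8 in either direction), with members as rows and pools as columns. Pan-leukocyte and cytotoxic rows are mostly blue in the atrial pools and red in the ventricular pools, whereas Cd14, Cd163 and Mrc1 run the other way.

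Promoters of the members were searched for short motifs of factors known in blood cells, since many members lay on the same side. RefSeq sequence from 250 bases before to 50 bases after the gene start (GRCr8) was matched for 32 of the 47 members and read on both strands. The core GAGGAAG of PU.1, the factor that Spi1 encodes, was in 9 of 32 member promoters (28.1%) and in 12.4% of all 33469. With 1 more letter, GAGGAAGT, which contains the shorter motif, it was in 2 (6.25%) against 2.42%. The RUNX motif TGTGGT was in 7 (21.9%) against 17.3%, the AP-1 motif TGACTCA in 4 (12.5%) against 4.63%, and the GATA motif GATAAG in 0 against 7.05%. A match is a description of the letters and not evidence of binding. Matches upstream of the gene start are shown in capitals, as GAGGAAG or its reverse complement, for members that were lower (Laptm5, Cd53), higher (Mrc1) and not called (Itgam), so that the same letters can be seen beside all 3 outcomes.
Laptm5 (chr5:148371796-148371842, plus strand): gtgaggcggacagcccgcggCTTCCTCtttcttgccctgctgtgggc
Cd53 (chr2:197087915-197087961, minus strand): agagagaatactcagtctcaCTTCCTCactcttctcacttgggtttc
Mrc1 (chr17:82157669-82157715, plus strand): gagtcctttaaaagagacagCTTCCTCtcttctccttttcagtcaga
Itgam (chr1:192089421-192089467, plus strand): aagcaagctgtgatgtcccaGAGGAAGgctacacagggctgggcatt
Itgam (chr1:192089532-192089578, plus strand): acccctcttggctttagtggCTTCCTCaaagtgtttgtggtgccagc

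The pan-leukocyte markers, which do not separate one leukocyte from another, were lower in the atria in 8 of 10 cases, with a median difference of -0.51. Of all genes 22.5% were lower, with a median of -0.04. Itgal, the alpha chain of the integrin that lets leukocytes bind vessel walls and other cells, read 4.60, 4.60, 4.48 and 4.84 in the atrial pools and 6.24, 6.14, 5.84 and 5.82 in the ventricular pools. The groups did not overlap, and Itgal was 2.61 fold lower in the atria (difference -1.38, SE 0.11, adjusted p = 4.39e-06). Its partner chain Itgb2, shared with the integrins of Itgam and Itgax, was lower by a smaller amount (difference -0.56, SE 0.09, adjusted p = 0.000673).

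Ptprc, the phosphatase CD45 by which leukocytes are usually recognised, gave 5.16, 5.17, 4.92 and 4.95 in the atrial pools and 5.72, 5.73, 5.70 and 6.16 in the ventricular pools. Ventricular pool 4 stood above the other ventricular pools, which were close together, and no atrial pool reached them. The fold was 1.71 (difference -0.78, SE 0.11, adjusted p = 0.000277), and a dimmer second probe set of Ptprc was lower too (difference -0.55, adjusted p = 0.00763). Lcp1, an actin-bundling protein of leukocytes, read 7.79, 7.42, 7.56 and 7.79 in the atrial and 8.43, 8.20, 8.31 and 8.47 in the ventricular pools. Here too the groups did not overlap, with a fold of 1.64 (difference -0.71, SE 0.10, adjusted p = 0.000204).

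Lcp2, an adaptor of T cell receptor signalling, read 3.75, 3.62, 3.75 and 3.73 in the atrial pools and 4.65, 4.33, 4.26 and 4.20 in the ventricular pools. All atrial pools lay near the low end. The ventricular level was 1.57 fold higher as read, a size that is not set (difference -0.65, SE 0.09, adjusted p = 0.000312), and a second probe set differed by -0.48. The tetraspanin Cd53 (-0.37), the actin regulator Coro1a (-0.46) and the lysosomal membrane protein Laptm5 (-0.26) were also lower. Of these, Cd53 kept its call with any 1 pool left out. The call of Coro1a was lost without atrial pool 2 or 3 or ventricular pool 1, 2 or 4 (adjusted p = 0.0509 to 0.0836), and that of Laptm5 without atrial pool 1 or 2 or ventricular pool 1, 2 or 4 (adjusted p = 0.0559 to 0.0805). Cd48, a surface ligand of lymphocytes, differed by -0.07 (95% interval -0.22 to 0.08). For Cd52, a small surface glycoprotein, the difference was -0.28 (-0.60 to 0.05), with an adjusted p of 0.158 over all pools and 0.0487 without atrial pool 1.

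**Figure D3:**
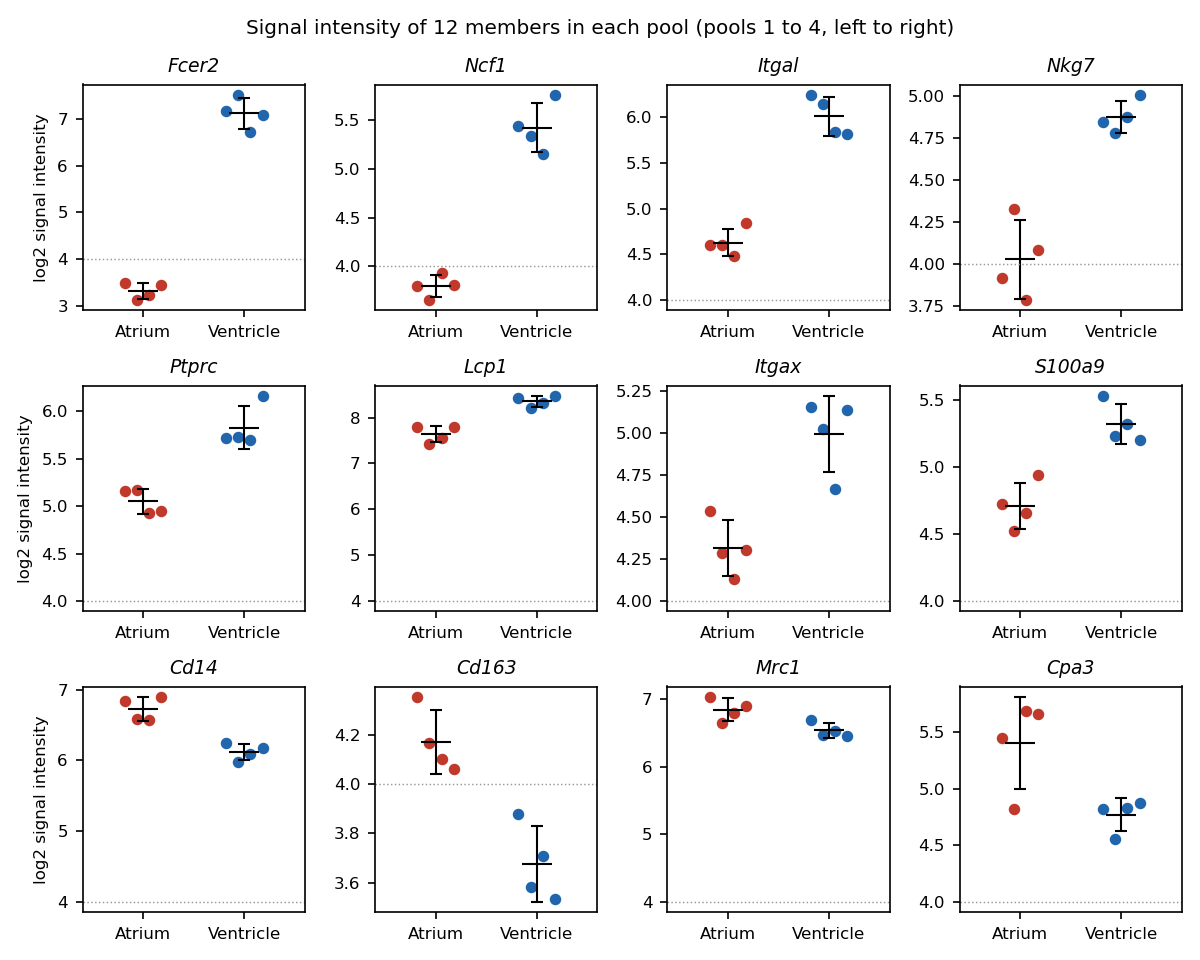
Log2 signal intensity (y axis) of 12 members in each of the 4 atrial and 4 ventricular pools, with mean and SD. The dotted line marks the level of 4 under which a signal is near the low end. Fcer2 separates the tissues most, at 3.13 to 3.51 in the atria and 6.71 to 7.51 in the ventricles, and only Mrc1 and Cpa3 have pools of both tissues at shared levels.

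Cytotoxic cells, that is natural killer cells and killer T cells, were followed through 4 genes, and all 4 were lower in the atria with no overlap between the pools. Of all genes 22.5% were lower, and in 21.9% every atrial pool was below every ventricular pool. Nkg7, a membrane protein of cytotoxic granules, read 3.92, 4.33, 3.79 and 4.08 in the atrial pools and 4.85, 4.78, 4.88 and 5.01 in the ventricular pools. Although atrial pool 2 was the highest of its tissue, it stayed below the lowest ventricular pool, and the fold was 1.8 (difference -0.85, SE 0.11, adjusted p = 0.00013). Klrd1, the receptor chain CD94 of natural killer cells, gave 3.78, 3.67, 3.62 and 3.64 in the atrial pools and 3.97, 4.11, 4.13 and 4.32 in the ventricular pools. These levels straddle the low end. The ventricles were 1.37 fold higher as read, a size that is not set at such levels (difference -0.45, SE 0.08, adjusted p = 0.00105).

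Prf1, the pore-forming protein perforin, and Gzmb, the granule protease granzyme B, were near the low end in both tissues. Prf1 ran from 3.26 to 3.43 in the atrial and from 3.86 to 4.05 in the ventricular pools (difference -0.61, adjusted p = 4.51e-05), and Gzmb from 2.68 to 3.24 and from 3.39 to 3.51 (difference -0.54, adjusted p = 0.00211). The atrial and ventricular pools did not overlap for either gene, but their fold is not set at such levels, and the dimmer probe set of Gzmb did not pass the test (-0.26, adjusted p = 0.0712). The RUNX motif was found in the promoters of all 3 of these genes that had an entry, Nkg7, Prf1 and Gzmb. It was also in those of Cd2 and S100a9, which were lower, and of Cybb and Itgam, which were not called. These make 21.9% of member promoters, against 17.3% of all. The matches of the 3 cytotoxic genes are shown in capitals, as TGTGGT or its reverse complement. These genes were picked because they lay on the same side of 0, and a link of the motif to that side was not tested.
Nkg7 (chr1:102981371-102981416, plus strand): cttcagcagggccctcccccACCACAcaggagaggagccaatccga
Prf1 (chr20:29788886-29788931, plus strand): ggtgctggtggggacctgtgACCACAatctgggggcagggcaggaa
Gzmb (chr15:34462630-34462675, minus strand): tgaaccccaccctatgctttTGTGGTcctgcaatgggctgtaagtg
Gzmb (chr15:34462571-34462616, minus strand): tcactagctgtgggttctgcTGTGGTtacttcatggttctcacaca
Gzmb (chr15:34462661-34462706, minus strand): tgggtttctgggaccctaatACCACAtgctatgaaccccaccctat

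T cell markers were dim as a class: 5 of 7 had both tissue means near the low end. All 7 differences were negative, with a median of -0.20, and 4 (57.1%) were lower by the test, against 22.5% of all genes. The median was -0.12 when the arrays were rescaled by cyclic loess or by quantile normalization. Under either scaling Cd3e and Cd8a lost their calls. Cd2, an adhesion receptor of T and natural killer cells, read 4.08, 4.00, 4.02 and 4.03 in the atrial pools against 4.48, 4.62, 4.41 and 4.36 in the ventricular pools. The difference of -0.44 (SE 0.07, adjusted p = 0.000504) exceeded the spread between pools.

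Cd3e, a signalling chain of the T cell receptor complex and the defining marker of these cells, gave 3.35, 3.28, 3.39 and 3.44 in the atrial and 3.59, 3.46, 3.67 and 3.54 in the ventricular pools. Its pools did not overlap, but the gap was small (difference -0.20, adjusted p = 0.0344), and a second probe set did not pass the test (-0.04, adjusted p = 0.758). The call was lost without atrial pool 1, 2 or 3 or ventricular pool 1, 3 or 4 (adjusted p = 0.0561 to 0.0962). Cd3d, another chain of the complex, was lower by the test (-0.25, adjusted p = 0.00601), whereas Cd3g was not called (-0.16, adjusted p = 0.12). Cd8a, the coreceptor of killer T cells, was lower in its brightest probe set (-0.27, adjusted p = 0.0238), lost the call without atrial pool 1 or 3 or ventricular pool 1 or 3 (adjusted p = 0.0631 to 0.0711), and differed by 0.04 and -0.07 in the other probe sets. Cd4, the coreceptor of helper T cells, and Cd5 differed by -0.10 each, with 95% intervals of -0.31 to 0.10 and -0.26 to 0.06.

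B cell markers contained the largest difference of all members. Fcer2, the low-affinity IgE receptor CD23 of B cells, read 3.51, 3.13, 3.25 and 3.45 in the atrial pools and 7.16, 7.51, 6.71 and 7.08 in the ventricular pools. The atrial signals were near the low end and the ventricular signals were not. The ventricular level was 13.7 fold higher as read, a size that is not set (difference -3.78, SE 0.15, adjusted p = 2.8e-08). A second probe set of Fcer2 differed by -1.34 (2.53 fold, adjusted p = 5.92e-05). The other B cell genes did not come near this size. Cd79b, a chain of the B cell receptor complex, differed by -0.50 (SE 0.11, adjusted p = 0.00418), with ventricular pool 4 at 4.12 just above atrial pool 4 at 4.11. Cd22, an inhibitory receptor, was lower by the test (-0.26, adjusted p = 0.047) but not without atrial pool 1, 2 or 3 or ventricular pool 1, 3 or 4 (adjusted p = 0.0636 to 0.129). Ms4a1, the surface protein CD20, was near the low end in both tissues and differed by -0.18 (adjusted p = 0.125, and 0.0151 without atrial pool 4).

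Of the macrophage and other myeloid markers 12 were measured: 3 (25%) were higher in the atria, 4 (33.3%) lower and 5 without a call, shares close to the 22.5% of all genes in either direction. The higher genes were receptors of macrophages. Cd14, a receptor for bacterial lipopolysaccharide, read 6.84, 6.59, 6.56 and 6.90 in the atrial pools and 6.25, 5.98, 6.09 and 6.18 in the ventricular pools. Every atrial pool was above every ventricular pool, with a fold of 1.52 (difference 0.60, SE 0.09, adjusted p = 0.000501). Cd163, the scavenger receptor for haemoglobin bound to haptoglobin, gave 4.35, 4.16, 4.10 and 4.06 in the atrial pools and 3.88, 3.58, 3.71 and 3.53 in the ventricular pools. The ventricular signals were near the low end. The atrial level was 1.41 fold higher as read, a size that is not set (difference 0.49, SE 0.09, adjusted p = 0.00162).

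Mrc1, the mannose receptor, read 7.03, 6.65, 6.79 and 6.90 in the atrial pools and 6.69, 6.47, 6.53 and 6.45 in the ventricular pools. Its groups overlapped, since atrial pool 2 lay below ventricular pool 1 (difference 0.31, adjusted p = 0.0206). The call of Mrc1 was lost without atrial pool 1 or ventricular pool 2 or 4 (adjusted p = 0.0541 to 0.0558) and without atrial pools 1 and 4 together (0.18, adjusted p = 0.137). Cd68, a lysosomal glycoprotein and the defining marker of macrophages here, gave 5.33, 4.99, 5.34 and 5.77 in the atrial and 5.17, 5.25, 5.44 and 5.46 in the ventricular pools. Atrial pools held both the highest and the lowest value, and the difference was 0.03 (95% interval -0.29 to 0.34, adjusted p = 0.894). Without atrial pool 4, the highest, it was -0.11.

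The lower myeloid genes included a subunit of the NADPH oxidase, the enzyme with which phagocytes make superoxide. Ncf1, its cytosolic organiser, read 3.79, 3.65, 3.93 and 3.81 in the atrial pools and 5.44, 5.34, 5.15 and 5.76 in the ventricular pools. All atrial signals were near the low end. The ventricular level was 3.09 fold higher as read, a size that is not set (difference -1.63, SE 0.12, adjusted p = 1.92e-06). The catalytic subunit Cybb gave 5.22, 4.78, 5.18 and 5.4 in the atrial and 5.27, 5.31, 6.05 and 5.59 in the ventricular pools. With ventricular pool 3 well above the others and the groups overlapping, its difference of -0.41 did not pass the test (adjusted p = 0.0878, and 0.0473 without atrial pool 4).

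Itgax, the integrin chain CD11c of dendritic cells and some macrophages, gave 4.54, 4.29, 4.13 and 4.31 in the atrial pools and 5.15, 5.02, 4.67 and 5.14 in the ventricular pools. Ventricular pool 3 was the lowest of its tissue but stayed above all atrial pools, with a fold of 1.6 (difference -0.68, SE 0.12, adjusted p = 0.00105). Fcer1g (-0.41, adjusted p = 0.00331) and Tyrobp (-0.29, adjusted p = 0.00959), adaptors that carry the signal of many receptors of myeloid and natural killer cells, were lower as well. Lyz2, the lysozyme of macrophages, differed by -0.29 (adjusted p = 0.0599) and passed the test without atrial pool 1 (0.0497), atrial pool 4 (0.0329) or ventricular pool 2 (0.042). Itgam, the integrin chain CD11b, differed by -0.11 (95% interval -0.27 to 0.06). Aif1, an actin-binding protein of macrophages, had probe sets that went apart: the brighter was not called (0.18, adjusted p = 0.235) and the dimmer was lower (-0.30, adjusted p = 0.00984).

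Among the mast cell markers 3 of 6 differences were positive, and 1 gene (16.7%) was higher by the test, against 22.5% of all genes. The median was 0.01, but -0.08 without atrial pool 4, -0.06 without ventricular pool 2 and -0.11 without atrial pools 1 and 4. Cpa3, the carboxypeptidase of mast cell granules, read 5.45, 4.82, 5.69 and 5.66 in the atrial pools and 4.82, 4.55, 4.83 and 4.88 in the ventricular pools. Atrial pool 2 lay among the ventricular pools and the other atrial pools were above them, with a fold of 1.55 (difference 0.63, SE 0.17, adjusted p = 0.0135). Without atrial pools 1 and 4 the difference was 0.48 and no longer passed (adjusted p = 0.092). Cma1, the granule protease chymase, gave 5.43, 5.07, 5.23 and 5.88 in the atrial and 5.45, 5.12, 5.49 and 5.30 in the ventricular pools. Apart from atrial pool 4 its values were mixed, and the difference was 0.06 (95% interval -0.28 to 0.41, adjusted p = 0.768), or -0.10 without that pool. The tryptase Tpsab1 differed by -0.15 (-0.41 to 0.11), and by -0.35 without atrial pools 1 and 4 (adjusted p = 0.0247). Kit, the stem cell factor receptor, differed by -0.23 (adjusted p = 0.0725, and 0.0119 without ventricular pool 1). Ms4a2 and Fcer1a, chains of the high-affinity IgE receptor, were near the low end in both tissues and differed by 0.07 and -0.04.

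Neutrophils were represented by a pair of calcium-binding proteins that join in one complex. S100a9 gave 4.72, 4.52, 4.65 and 4.94 in the atrial pools and 5.53, 5.24, 5.33 and 5.20 in the ventricular pools. The tissues did not overlap, and the fold was 1.53 (difference -0.61, SE 0.10, adjusted p = 0.000698). S100a8 read 2.83, 2.44, 2.55 and 2.70 in the atrial and 2.86, 2.77, 2.78 and 2.67 in the ventricular pools, all near the low end. Its difference of -0.14 did not pass the test (adjusted p = 0.231), and without atrial pools 1 and 4 it was -0.28 (adjusted p = 0.0215).

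**Figure D4:**
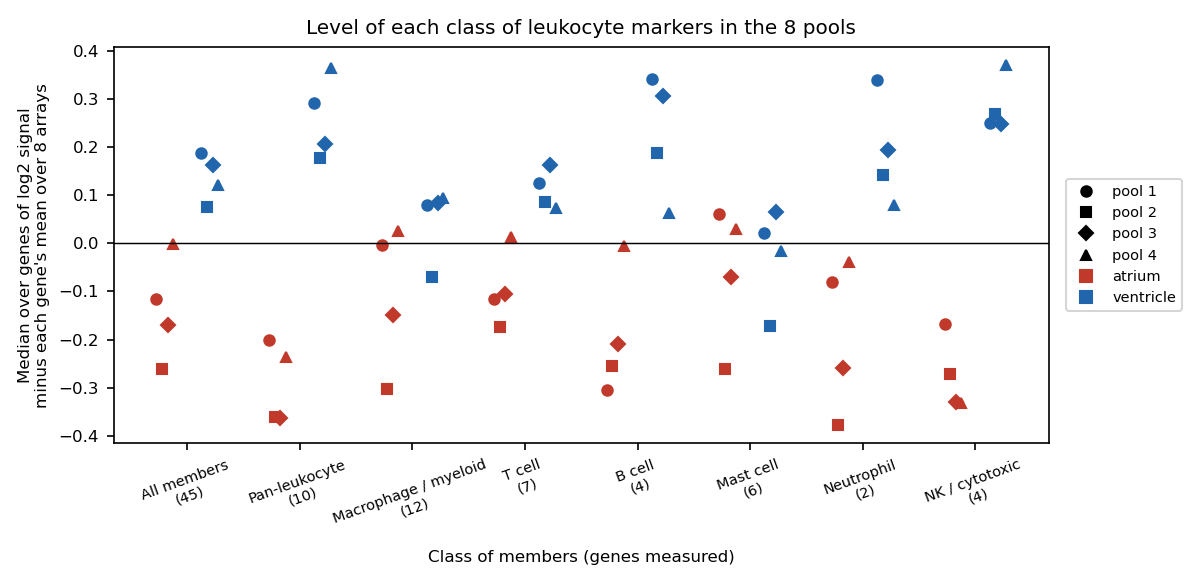
Level of each class of members in each pool (y axis): the median over its measured genes of the log2 signal minus the gene's mean over 8 arrays. All ventricular pools lie above all atrial pools except in the macrophage and mast cell classes, where atrial and ventricular pools mix. The lowest atrial pool of both mixed classes is pool 2, at -0.30 and -0.26.

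Further genes of the same cells were counted from lists of 129 leukocyte genes outside the members, of which 95 were measured. In the atria 34 were lower (35.8%) and 13 higher (13.7%), against 22.5% of all genes in either direction. Among other pan-leukocyte genes 9 of 15 were lower, led by Sash3 (-1.03), an adaptor of lymphocytes, Inpp5d (-0.69), a lipid phosphatase that restrains immune receptors, and Arhgap30 (-0.65). No gene of that list was called higher in limma, and 1 was at an unadjusted p under 0.05. Among other T and natural killer cell genes 9 of 17 (52.9%) were lower, and all 17 differences were negative. Over all 14217 genes 7940 differences were negative. In 9 of these 17 genes both tissue means were near the low end, and 2 of the lower calls were among them. Ccl5 (-0.98), a chemokine of activated T and natural killer cells, Lck (-0.60), the kinase of the T cell receptor, and Cd7 (-0.56) led that list. Of the other neutrophil genes 2 of 9 were lower, Csf3r (-0.27) and Padi4 (-0.21), both near the low end. That share, 22.2%, was close to the 22.5% of all genes.

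Of the other macrophage genes 8 of 24 (33.3%) were higher and 6 (25%) lower, shares not far from the 22.5% of all genes in either direction. Lyve1, a hyaluronan receptor of vessel-associated macrophages that lymphatic endothelium also makes, read 9.07, 8.86, 8.75 and 9.0 in the atrial pools and 7.87, 7.58, 7.81 and 7.65 in the ventricular pools. The groups were far apart (difference 1.19, 2.28 fold). Lyn (0.77), a kinase of myeloid and B cells, and Clec10a (0.45), a lectin of macrophages, were the next of the higher genes. C1qa (0.39), C1qb (0.36) and C1qc (0.29), the chains of complement C1q, and Folr2 (0.27), a folate receptor of resident macrophages, were higher as well and were singled out after their values were seen. The remaining higher gene was Fcgr2b (0.27), near the low end in both tissues. On the lower side the largest differences were those of Fgr (-0.48), a kinase of myeloid cells, Fcgr3a (-0.34), an Fc receptor, and Ccr2 (-0.32), the chemokine receptor of monocytes, the last 2 near the low end in both tissues. Cx3cr1 (-0.30), Clec7a (-0.26) and Fcgr1a (-0.25) were the remaining lower genes.

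Of the other B and plasma cell genes 3 of 10 (30%) were lower and 1 (10%) higher, against 22.5% of all genes in either direction. Cd74, the invariant chain that accompanies class II molecules in any antigen-presenting cell, lay at 9.66 to 9.90 in the atrial and 10.73 to 10.80 in the ventricular pools (difference -0.95, 1.94 fold). Blnk (-0.49) and Fcrla (-0.40) were lower by less, and Mzb1, a chaperone of the endoplasmic reticulum in plasma cells, was higher (1.18). Dendritic cell genes were split, with Flt3 (0.61) and Itgae (0.52) higher and Irf8 (-0.49) and Clec9a (-0.45) lower among 6, 33.3% in either direction. Of 14 other mast cell and basophil genes Rab27b (0.49) and Hpgds (0.49) were higher (14.3%). Tpsb2 (-0.45), Gata2 (-0.40) and Srgn (-0.28) were lower (21.4%). Neither share exceeded the 22.5% of all genes.

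**Figure D5:**
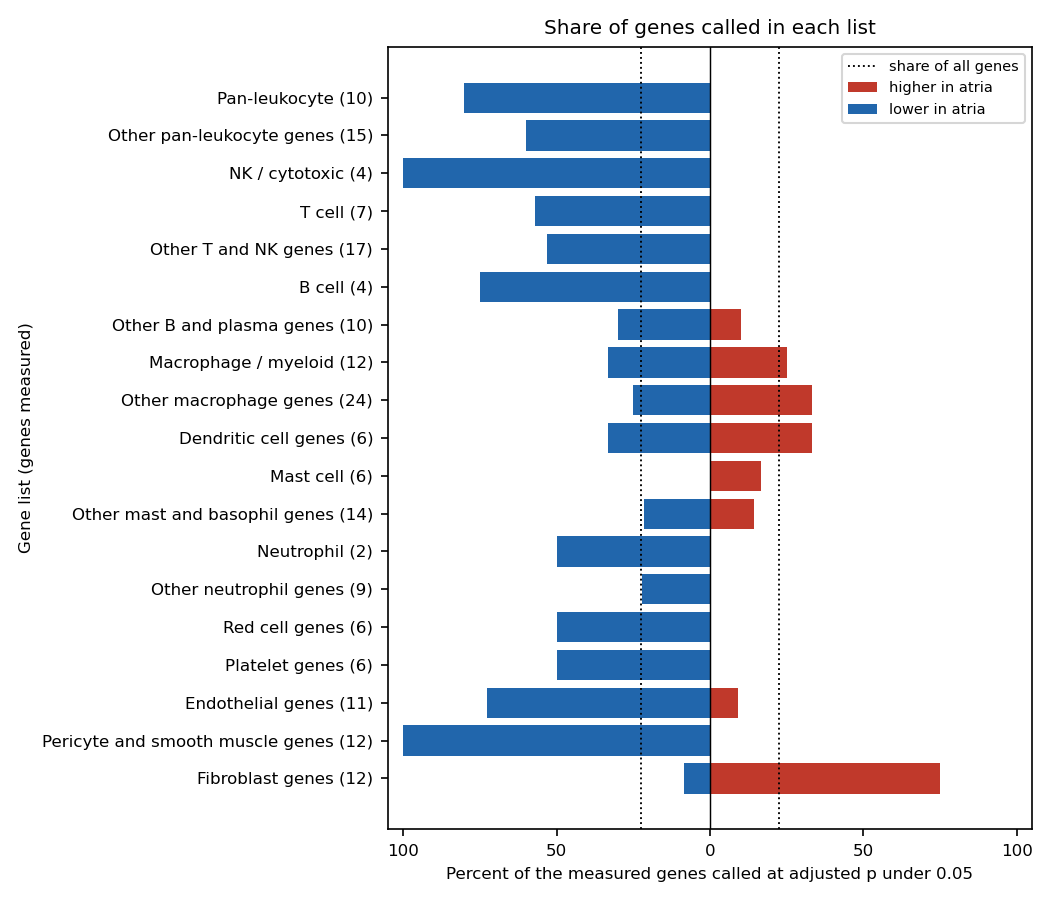
Percent of the measured genes of each list that were called (adjusted p under 0.05) as lower (left) or higher (right) in the atria, with the number of measured genes in parentheses. The dotted lines mark the share of all genes, 22.5% in either direction. Pericyte and smooth muscle genes (100% lower) and endothelial genes (72.7% lower) lie on the same side as the pan-leukocyte genes (80% lower), and fibroblast genes (75% higher) on the other.

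Genes of blood and of other cells of the wall also differed between the tissues, where 22.5% of all genes were lower and 22.5% higher. Of 6 red cell genes 3 were lower in the atria, Slc4a1 (-0.80), Alas2 and Hba-a3 (-0.44). All 6 differences were negative, though that of Hbb was very small. Alas2, the haem synthesis enzyme of red cells, read 8.47, 8.31, 7.92 and 8.08 in the atrial and 8.85, 8.57, 8.55 and 8.65 in the ventricular pools (difference -0.46, adjusted p = 0.0104), while Hbb, a haemoglobin chain, lay between 12.54 and 12.65 in all pools (difference 0.00, 95% interval -0.13 to 0.12). The summed signal of the red cell genes on the linear scale overlapped, from 7741 to 8846 in the atria and from 8480 to 9443 in the ventricles. Hbb, the brightest of these genes, made up the largest part of the sum. Of 6 platelet genes 3 were lower, Treml1 (-0.46), Gp9 (-0.37) and Gp5 (-0.30), the last near the low end in both tissues. Pf4 (0.06), Itga2b (-0.14) and Ppbp (-0.14) were not called. Summed signals of the platelet genes were 237 to 286 in the atria and 257 to 294 in the ventricles.

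Endothelial genes were lower in 8 of 11 cases (summed signals 3410 to 3591 in the atria and 4694 to 5149 in the ventricles) and pericyte and smooth muscle genes in 12 of 12 (3253 to 3361 and 5183 to 5393). Fibroblast genes were higher in 9 of 12 (16270 to 19069 and 12915 to 14896), mesothelial genes in 7 of 8 (1122 to 2138 and 192 to 215) and adipocyte genes in 4 of 7 (1578 to 4654 and 2203 to 2428). All 8 atrial muscle genes were higher and all 7 ventricular muscle genes lower in the atrial pools. Several of them, such as Sln, Nppa and Irx4, were already reported as chamber specific by the study from these arrays. Single genes went against their list: the endothelial Vwf was higher in the atria (0.93, adjusted p = 9.31e-06), while the fibroblast gene Fap (-0.92, adjusted p = 0.00105) and the mesothelial gene Wt1 (-0.38, adjusted p = 0.0291) were lower. The part of these other cells and of blood in the leukocyte differences was not tested.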

How the data were processed

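RNA of 4 atrial and 4 ventricular pools was measured on Affymetrix rat genome arrays from 10 µg of total RNA per array. The deposited log2 signal intensities of 31042 probe sets are RMA summaries made by the authors, used here without further scaling. The version of RMA was not given in the sources used here. Array medians lay between 4.80 and 4.81, and SDs between pools had medians of 0.11 (atria) and 0.09 (ventricles). No reads underlie these values, so the number of arrays limits the precision.

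Gene names came from the platform annotation: 20826 probe sets carried 1 symbol, 436 several and 9780 none, and 20758 were updated by gene ID. Tissues were compared with limma 3.58.1 (R 4.3.3, lmFit and eBayes, two-sided, no block) with p-values adjusted by Benjamini-Hochberg across the whole array. The SAM test of the study was not run. Both tissues came from the 13 rats, but which animals went into which pool was not given, so pools were not paired. Each p-value sets the tissue difference against the spread between pools, which is not the spread between animals. The procedure was tested on simulated data.

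The members and lists were chosen with earlier results of these data known, so no p-value over a list is given. Values in every array are given for members that were called with a fold of at least 1.5 and a higher mean of at least 4 and for the defining markers Ptprc, Cd68, Cd163, Cd3e, Cpa3, Cma1, S100a8, S100a9 and Klrd1, and are also given for Mrc1, Cd2 and Cybb, chosen after their values were seen. Of the other leukocyte lists the 3 largest called differences in each direction are named, and of the other macrophage genes all that were called. Where the lower tissue mean was under 4, a fold is given as read and its size is not set. Alternatives were 3 further scalings between arrays, trended and robust variances, a replicate block, the mean of a gene's probe sets, a filter on the dimmest 40% of probe sets and omitted pools. Promoters were the RefSeq sequences of GRCr8. A search for a signalling motif in the proteins was not run, as protein sequences were not used here. Plots were made in Python 3.11.15 (matplotlib 3.10.9).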

Additional observations from a re-analysis of the deposited data

Results flagged for a closer look

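In 4 of the 90 groups of 4 pools examined (each of 45 members in each tissue), 1 pool stood far from the others, its gap to the nearest pool taking up a larger part of the whole range than Dixon's 95% critical value for 4 samples. Chance alone gives about 1 in 20 such groups. For Ptprc the gap was 0.927 of the range: ventricular pool 4 read 6.16 and the other ventricular pools 5.70 to 5.73. For Cd53 it was 0.921, with atrial pool 3 at 6.25 below the others at 6.45 to 6.47. For Aif1 it was 0.984, with atrial pool 1 at 5.37 above the others at 5.001 to 5.007. For Cpa3 it was 0.842, with ventricular pool 2 at 4.55 below the others at 4.83 to 4.88. The calls of Ptprc, Cd53 and Cpa3 were kept with that pool left out, and Aif1 was not called with or without it.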

How the results depend on the processing

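Under every alternative that gave a value, 19 of the 24 lower calls and 2 of the 4 higher calls (Cd14 and Cd163) were kept; Coro1a, Laptm5, Cd3e, Cd8a, Cd22, Cpa3 and Mrc1 lost theirs under at least 1. The number of lower members ran from 17 (dimmest 40% of probe sets left out, which removes 15 members) to 27. This leaves aside the study thresholds set on limma, which gave 3 lower and 0 higher members (27 lower and 4 higher at an unadjusted p under 0.05 in limma). With any 1 pool left out there were 20 to 27 lower and 3 or 4 higher members, and the median difference stayed between -0.32 and -0.24. Without atrial pools 1 and 4 together, 2 members were higher. Without the dimmest probe sets the class medians of T cell (-0.44), neutrophil (-0.61) and cytotoxic genes (-0.85) each rest on 1 gene.

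Pools with the same replicate number had residual correlations from -0.188 to 0.155. So few pools cannot show whether the numbers pair them. With the replicate block 22 members were lower and 4 higher: Laptm5, Cd3e, Cd8a and Cd22 lost their calls, and Lyz2 and Cybb gained one.

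The members that changed sign all had small differences that were not called, and the mast cell median ranged from -0.11 to 0.06. Fcer1a was 0.035 after cyclic loess and 0.032 after quantile normalization, and Aif1 was -0.0575 as the mean of its probe sets. Cd68 was -0.0022 after quantile normalization and -0.17 without atrial pools 1 and 4, and Cma1 was -0.19 without them. With 1 pool left out, Fcer1a ranged from -0.1193 to 0.0092, Cd68 from -0.11 to 0.15 and Cma1 from -0.10 to 0.18. The cause was not tested. Both tissue means were under 4 in 5 of 7 T cell, 2 of 4 cytotoxic and 1 of 2 neutrophil genes.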
